A study of Homo sapiens with 4 samples.

Results

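Amino acid transporters and enzymes of amino acid breakdown were examined in cells of the human breast cancer line MDA-MB453, an established cell line, grouped as positive or negative for green fluorescent protein (GFP). The list holds 45 genes, 21 carriers of the solute carrier (SLC) families and 24 enzymes, and every probe of the array whose annotated symbol is on the list was taken. Of the 45 genes, 43 had a named probe, 74 probes in all, and 39 were tested through 55 probes, out of 10955 tested genes and 20046 named ones. SLC7A7 and GLS2 had no named probe. SLC1A1, SLC43A1, SLC6A14 and GLUL had no probe detected above the negative controls (detection p under 0.05) in both replicates of a group, and stayed untested.

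The groups were GFP-positive cells, which the labels call cancer stem-like, and GFP-negative cells, which the labels call their non-stem-like counterpart, both grown in DMEM with fetal bovine serum. How the groups were derived from the line and separated is stated no further in the labels. Each group had 2 arrays, and total RNA of the pairs was isolated on different days. The series text adds that batches of RNA were combined for the arrays, without saying how. All arrays come from 1 cell line, and GFP is driven by an element not given in the sources used here. RNA came from whole cell groups, so fewer cells with a transcript and less of it per cell cannot be told apart. Arrays were alike within a group (Pearson's r across tested probes 0.991 in GFP-positive and 0.987 in GFP-negative cells) and less so between groups (0.843 to 0.856), and no pair held identical signals. The median bead signal was 178 and 192 for GFP-positive cells, against 184 for both replicates of GFP-negative cells. A signal of about 200 marked the limit of detection, from 200.5 and 221 on the GFP-positive arrays to 209 and 208 on the GFP-negative arrays.

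Markers of the line's luminal and apocrine type were only partly present. Of 15 such markers with a named probe, 6 were detected on no array by their brightest probe: AGR2, ESR1, GATA3, PGR, PIP and TFF3. The list's summed signal was 47582 and 49668 on the GFP-positive arrays, against 24301 and 27457 on the GFP-negative arrays, and 8 or 9 of the 15 were detected on each array. Most of that gap was in the keratins KRT8 (12411 and 12727, against 658 and 417) and KRT19 (11595 and 12569, against 1823 and 1425). Of the list's 9 tested genes, KRT8, KRT19 and EPCAM were higher, ERBB2 (1705 and 1681, against 5128 and 4934) and FOXA1 were lower, and 4 did not pass. Of 6 fibroblast markers, 2 and 0 were detected on the GFP-positive arrays and 3 on each GFP-negative array, with summed signals of 1126 and 1104 against 1633 and 2125. DCN, LUM and PDGFRB were detected on no array. The 3 tested ones, COL1A1, COL1A2 and COL3A1, were all called lower in GFP-positive cells (100%, beside 24.1% of all tested genes). By their brightest probes they were at least 1.89-fold, 3.94-fold and 5.91-fold lower. The basal list summed to 1228 and 1808 in GFP-positive cells, against 819 and 743 in GFP-negative cells. ACTA2 carried that gap (828 and 1372, against 214 and 189), while KRT5 was undetected in GFP-positive cells (104 and 119, against 282 and 262) and was called lower. Of the 4 leukocyte markers with a probe, CD3E, LYZ and PTPRC were detected on no array. CD14 was detected on all 4 arrays by its brightest probe (242 and 273, against 321 and 254) and did not pass. The summed signal of the 4 was 665 and 799, against 783 and 749. All 4 endothelial markers were detected on no array (summed signal 549 and 561, against 604 and 506). The part of these marker differences in the results below was not tested.

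Cells take up amino acids through carriers that differ in substrate and in driving ion, and many of these carriers exchange one amino acid for another across the plasma membrane or the lysosome. Branched-chain amino acids (leucine, isoleucine and valine) are broken down by a shared aminotransferase step and a shared dehydrogenase complex before their routes part. The aminotransferase exists as a cytosolic enzyme, BCAT1, and a mitochondrial one, BCAT2, and BCAT1 is known for its high level in several tumour types.

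Most of the amino acid genes differed between the groups, in both directions. Of the 39 tested genes, 12 rose in GFP-positive cells, 15 fell and 12 did not pass an adjusted p of 0.05 (limma moderated test, Benjamini-Hochberg over all tested probes). That is 69.2% called, where 45.8% of all tested genes were called (21.5% higher and 24.1% lower) and 40.5% of all tested probes. A called difference of 1 or more on the log2 scale, by a gene's brightest tested probe, was fitted for 9 genes upwards and 10 downwards, 48.7% of the 39, beside 23.9% of all tested genes. With undetected groups set at their bounds, these were 8 and 9 genes, 43.6% of the 39 beside 21.5% of all, since PRODH and SLC36A4 drop below 1. A probe was tested where both arrays of at least 1 group detected it, so genes seen in 1 group only entered through the group where they were high. That favoured a call without ensuring it, as SLC38A6 did not pass. Among the 27 genes detected on all arrays, 7 were higher and 10 lower (25.9% and 37%), where all such genes gave 15.8% and 20.6%. The median log2 difference was -0.28 over the 39 genes and -0.05 over all tested genes, and -0.23 with genes near background set at their bounds. Transporters gave 8 higher and 4 lower of 17, and enzymes 4 higher and 11 lower of 22. Members of the list were chosen with earlier results of these data known, so the shares are a description. With 2 arrays against 2, an exact permutation test cannot give a 2-sided p below 0.333, and the calls rest on variance pooled across probes by limma.

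**Figure D1:**
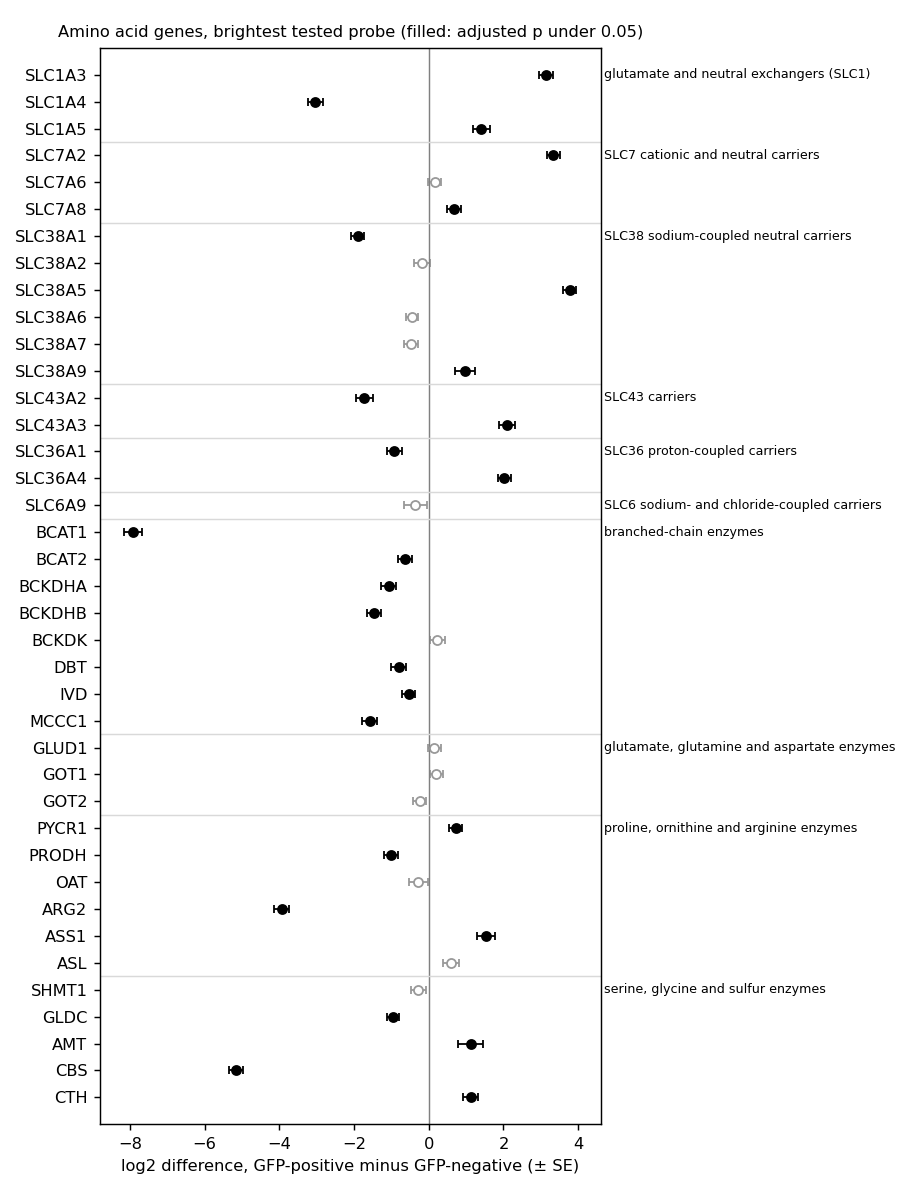
Log2 difference in signal, GFP-positive minus GFP-negative, with its standard error, for the 39 tested amino acid genes by their brightest tested probe (2 arrays per group, filled points past an adjusted p of 0.05). BCAT1, CBS and ARG2 lie farthest to the left, SLC38A5, SLC7A2 and SLC1A3 farthest to the right, and 7 of the 8 branched-chain enzymes are filled points left of 0.

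BCAT1, the cytosolic branched-chain aminotransferase, showed the largest difference on the list, both as fitted and as a bound. Its probe had signals of 137 and 127 in GFP-positive cells, against 7256 and 10822 in GFP-negative cells. Both GFP-positive arrays lay below the limit of detection (detection p 0.675 and 0.821), and both GFP-negative arrays were far above it. The normalized log2 signal averaged 5.09 ± 0.12 in GFP-positive cells and 13.01 ± 0.41 in GFP-negative cells (SD, n = 2 each), which puts GFP-positive cells at least 117-fold lower (adjusted p = 6.98e-07). The bound sets the GFP-positive level at the lowest detected value of each array, 6.11 and 6.17 on the log2 scale. Adjusted p-values given beside this and later bounds belong to the fitted difference, and no bound was itself tested. Across all alternative settings that gave a value, the BCAT1 difference stayed between -8.21 and -5.99 on the log2 scale, with adjusted p-values up to 7.42e-05.

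The promoter of BCAT1 is shown because the gene changed most. The RefSeq table (GRCh38.p14) lists 5 distinct start windows for BCAT1. Printed is the one window that holds TGATGNAA, the core of the amino acid response element that the transcription factor ATF4 is known to bind, at chr12:24949052-24949351 on the minus strand, with the match in capitals.
BCAT1: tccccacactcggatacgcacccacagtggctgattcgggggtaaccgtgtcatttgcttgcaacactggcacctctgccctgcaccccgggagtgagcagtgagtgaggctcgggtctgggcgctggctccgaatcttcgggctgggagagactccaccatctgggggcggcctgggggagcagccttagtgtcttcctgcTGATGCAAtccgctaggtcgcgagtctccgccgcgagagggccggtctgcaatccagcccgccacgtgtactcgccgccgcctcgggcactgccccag

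Set beside BCAT1, the other branched-chain enzymes moved in the same direction by much less, with the exception of BCKDK. BCAT2, the mitochondrial aminotransferase, had signals of 1679 and 1846 in GFP-positive cells, against 3245 and 2856 in GFP-negative cells. The groups did not overlap, and the log2 difference was -0.64 ± 0.19 (SE, adjusted p = 0.0292). Its call was lost without GFP-positive replicate 1 (0.146), GFP-positive replicate 2 (0.107) or GFP-negative replicate 1 (0.0979), and with all probes tested (0.0662).

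The 3 subunit genes of the branched-chain dehydrogenase core were all lower in GFP-positive cells. BCKDHA, which encodes the E1 alpha subunit, had signals of 574 and 627, against 1275 and 1138 (log2 difference -1.08 ± 0.19, adjusted p = 0.00382). BCKDHB, the E1 beta subunit, had signals of 323 and 349, against 597 and 829 (-1.46 ± 0.20, adjusted p = 0.000939). Of its 4 tested probes, 3 passed, with differences of -1.46, -1.30 and -2.35, and the other, detected on the GFP-negative arrays only, had -0.30 (adjusted p = 0.196). DBT, the E2 subunit, had signals of 729 and 950, against 1418 and 1558 (-0.81 ± 0.20, adjusted p = 0.0144). The DBT call was lost without GFP-positive replicate 1 (adjusted p = 0.118), and the gene's other tested probe had -0.65 with an adjusted p of 0.157.

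BCKDK, the kinase that inactivates the dehydrogenase, was the branched-chain enzyme that did not pass. Its signals were 4568 and 4036 in GFP-positive cells, against 4728 and 3757 in GFP-negative cells, so the groups overlapped (log2 difference 0.23 ± 0.21, adjusted p = 0.407). Downstream on the leucine route, MCCC1, the alpha subunit of methylcrotonyl-CoA carboxylase, had signals of 633 and 804, against 1828 and 2276 (-1.58 ± 0.20, adjusted p = 0.000662). IVD, isovaleryl-CoA dehydrogenase, had 307 and 299, against 367 and 395 (-0.54 ± 0.18, adjusted p = 0.0482). The IVD call sat at the threshold and was lost without any 1 of the 4 arrays (adjusted p 0.0802 to 0.292), with cyclic loess (0.108), under 75th percentile scaling (0.0542), without background correction (0.0793) and with all probes tested (0.0902).

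**Figure D2:**
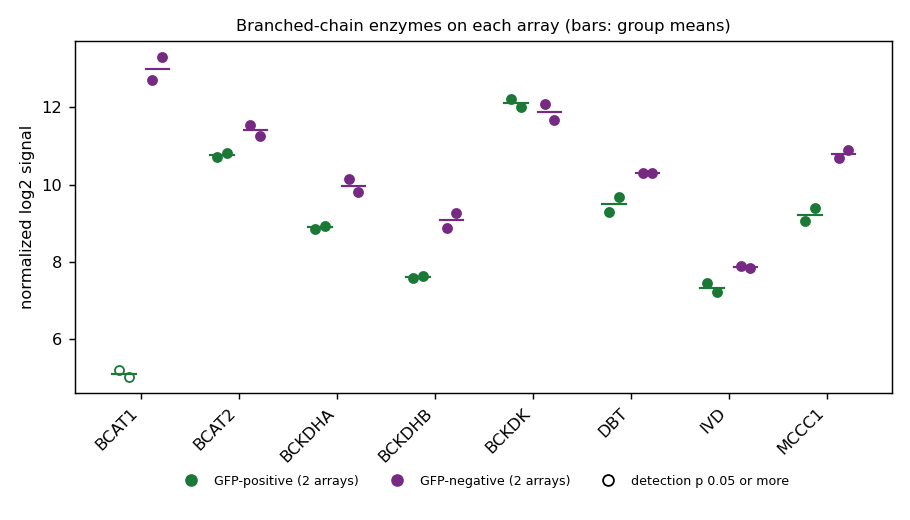
Normalized log2 signal of the 8 branched-chain enzymes on each array, GFP-positive left of GFP-negative for each gene (open points: detection p of 0.05 or more, bars: means of 2 arrays). Levels can be compared within a gene only; BCAT1 is at background on both GFP-positive arrays, and the BCKDK groups overlap.

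The log2 difference of BCAT1 minus that of each of the 7 other branched-chain enzymes was -5.29 (MCCC1) to -7.10 (BCKDK) with BCAT1 at its bound, and -6.33 to -8.15 with its fitted value, which rests on GFP-positive signals at background. For each of the 7 pairs the exact permutation p of this difference was 0.333, the smallest that 2 arrays against 2 can give.

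The rest of the branched-chain route was taken from a list of 19 further genes, of which 17 were tested. Of these, 7 were lower in GFP-positive cells, 2 were higher and 8 did not pass, all 17 being detected on every array. With the 8 enzymes above, the route gave 14 lower and 2 higher of 25 tested genes (56% and 8%), where 24.1% of all tested genes were lower. The largest decreases were those of ECHS1, the short-chain enoyl-CoA hydratase (log2 difference -1.39 ± 0.18, adjusted p = 0.000765), OXCT1, which activates ketone bodies (-1.13 ± 0.19), ALDH6A1, the methylmalonate semialdehyde dehydrogenase of the valine route (-1.04 ± 0.19), and PCCB, a subunit of propionyl-CoA carboxylase (-1.03 ± 0.17). MCCC2, the partner subunit of MCCC1, had -0.93 ± 0.25 (adjusted p = 0.024) and is named after its value was seen. AUH, methylglutaconyl-CoA hydratase, which acts after MCCC1 and MCCC2 in leucine breakdown, went the other way (1.50 ± 0.26, adjusted p = 0.00306), as did ACAD8, isobutyryl-CoA dehydrogenase of the valine route (0.78 ± 0.17, adjusted p = 0.0097). SLC25A44, a mitochondrial carrier of branched-chain amino acids, was lower (-0.99 ± 0.25, adjusted p = 0.0175).

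**Figure D3:**
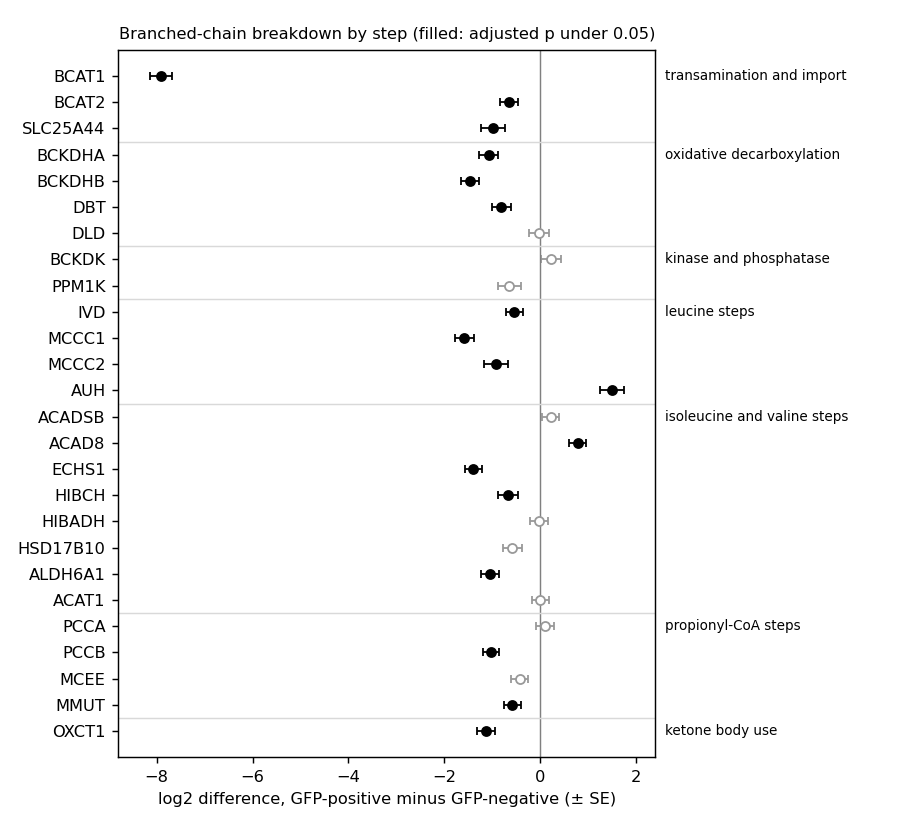
Log2 difference, GFP-positive minus GFP-negative, with its standard error, for the genes of branched-chain breakdown in the order of their steps (brightest tested probe, filled points past an adjusted p of 0.05). Filled points lie left of 0 in each block except the kinase and phosphatase block, and AUH and ACAD8 are the filled points to the right.

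Members of the SLC1 family moved in opposite directions. SLC1A3, a high-affinity carrier of glutamate and aspartate, had signals of 942 and 1095 in GFP-positive cells, against 231 and 268 in GFP-negative cells. All 4 arrays detected it, and the log2 difference was 3.14 ± 0.19 (adjusted p = 1.67e-05). SLC1A5, the glutamine and neutral amino acid exchanger also named ASCT2, had signals of 1672 and 1851, against 917 and 750 (1.40 ± 0.22, adjusted p = 0.00226). SLC1A4, a related exchanger of alanine, serine, cysteine and threonine, had 139 and 162, against 476 and 460. Neither GFP-positive array detected it, and the decrease in GFP-positive cells was at least 4.49-fold (adjusted p = 1.81e-05).

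Among the 40 listed genes with an entry in the RefSeq promoter table, 6 had TGATGNAA on either strand in at least 1 window (15%). The share was 2.7% of 8887 tested genes and 4.46% of all 27305 genes with a window. Of 82 further amino acid genes, 3 had a match (3.66%), so the higher share was not seen outside the list. Neither the 40 nor the 82 were restricted to tested genes, and the number of windows per gene was not compared between the sets. The 5 listed genes besides BCAT1 are shown as the 60 bases around the match, each on its gene's own strand, to set the shared letters beside unlike differences.
SLC1A3: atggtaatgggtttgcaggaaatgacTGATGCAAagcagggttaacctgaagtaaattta
SLC1A4: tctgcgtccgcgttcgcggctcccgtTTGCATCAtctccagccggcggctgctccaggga
SLC1A5: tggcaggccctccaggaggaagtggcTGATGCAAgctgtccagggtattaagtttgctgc
SLC38A1: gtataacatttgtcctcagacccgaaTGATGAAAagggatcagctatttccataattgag
GOT1: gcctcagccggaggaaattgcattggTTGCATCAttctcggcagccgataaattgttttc

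These stretches lie at chr5:36596342-36596401 (SLC1A3, plus strand), chr2:64989366-64989425 (SLC1A4, plus), chr19:46784878-46784937 (SLC1A5, minus), chr12:46266487-46266546 (SLC38A1, minus) and chr10:99430789-99430848 (GOT1, minus) of GRCh38.p14. SLC1A4 and GOT1 carry the match on the reverse strand. Of the 6 listed genes with a match, BCAT1, SLC1A4 and SLC38A1 were lower in GFP-positive cells, SLC1A3 and SLC1A5 were higher, and GOT1 did not pass. The match is a description of letters and not of binding.

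The listed SLC38 carriers, which couple neutral amino acids to sodium, included 2 that rose and 1 that fell of 6 tested. These were 33.3% and 16.7%, beside 21.5% and 24.1% of all tested genes. Further SLC38 carriers are counted with the other amino acid carriers below. SLC38A5, which carries glutamine, asparagine and histidine among others, had signals of 716 and 656 in GFP-positive cells, against 158 in each GFP-negative array, where it was not detected. It was at least 8.11-fold higher in GFP-positive cells (adjusted p = 4.59e-06). SLC38A1, a glutamine carrier of the same family, had 974 and 1086, against 3806 and 4003 (log2 difference -1.91 ± 0.17, adjusted p = 0.000114). Its other probe had 209 and 304, against 296 and 643, with a difference of -1.33 that did not pass (adjusted p = 0.0651). SLC38A2, the glutamine and alanine carrier induced by amino acid shortage, had 3614 and 4372, against 4412 and 6008, and the groups overlapped on the normalized scale (-0.19 ± 0.21, adjusted p = 0.513).

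The remaining listed SLC38 carriers were nearer the threshold. SLC38A9, which takes part in sensing lysosomal arginine, had signals of 445 and 464, against 259 and 381 (0.96 ± 0.26, adjusted p = 0.024). That call was lost without GFP-positive replicate 1 (0.079), GFP-positive replicate 2 (0.0751) or GFP-negative replicate 1 (0.0662), and with all probes tested (0.0963). SLC38A7, a lysosomal exporter of glutamine and asparagine, had -0.48 ± 0.19 (adjusted p = 0.0782, and 0.0489 with the replicate number as a block). SLC38A6, undetected on both GFP-positive arrays and just above the limit on the GFP-negative ones, did not pass (adjusted p = 0.0702).

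Of the 3 listed SLC7 carriers that were tested, 2 were called higher and 0 lower. These were 66.7% and 0%, beside 21.5% and 24.1% of all tested genes. Further SLC7 carriers are counted with the other amino acid carriers below. SLC7A2, a carrier of arginine, lysine and ornithine, had signals of 436 and 416 in GFP-positive cells, against 109 and 90 in GFP-negative cells by its tested probe, and was at least 4.16-fold higher (adjusted p = 8.6e-06). The other SLC7A2 probes were detected on no array. SLC7A8, a light chain for neutral amino acids, lay close to background and was at least 1.16-fold higher. Its fitted log2 difference was 0.67 (adjusted p = 0.0314). That call was lost without GFP-positive replicate 1 (difference 0.83), GFP-positive replicate 2 (0.52) or GFP-negative replicate 1 (0.54). It was also lost without background correction (adjusted p = 0.0852), with all probes tested (0.0813) and with an offset of 50 (0.0623). SLC7A6, whose protein exchanges cationic for neutral amino acids, had 0.16 ± 0.18 (adjusted p = 0.506).

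The 2 tested SLC43 carriers went opposite ways. SLC43A2, a facilitator of branched-chain amino acids and phenylalanine, had signals of 261 and 256 in GFP-positive cells, against 568 and 503 in GFP-negative cells (log2 difference -1.72 ± 0.22, adjusted p = 0.000723). SLC43A3, which is known as a purine nucleobase carrier in spite of its family, had 424 and 402, against 212 and 189, by its brightest probe. That probe was detected on 1 of the 2 GFP-negative arrays and gave at least 3.88-fold higher signal in GFP-positive cells (adjusted p = 0.000201), and a further probe, detected on neither GFP-negative array, gave at least 3.55-fold. SLC36A4, a high-affinity carrier of proline and tryptophan, had 270 and 296, against 143 and 123, and was at least 2.00-fold higher (adjusted p = 9.97e-05). SLC36A1, a proton-coupled carrier of lysosomes, had 279 and 263, against 391 and 385 (-0.92 ± 0.21, adjusted p = 0.0108). The SLC36A1 call was lost when GFP-positive replicate 2 (0.0881) or GFP-negative replicate 1 (0.0519) was left out. SLC6A9, a glycine carrier, had 238 and 354, against 303 and 367, and the groups overlapped (-0.37 ± 0.31, adjusted p = 0.381).

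Other amino acid carriers, 36 genes of which 16 were tested, gave 2 higher and 6 lower (12.5% and 37.5%, beside 21.5% and 24.1% of all tested genes). SLC6A17 and SLC7A9 rose in GFP-positive cells, at least 2.09-fold and 1.65-fold, both from background in GFP-negative cells. The lower ones included SLC38A4 (at least 2.25-fold, adjusted p = 0.00137), the mitochondrial aspartate and glutamate carrier SLC25A12 (-0.92 ± 0.17) and the lysosomal cystine exporter CTNS (-0.92 ± 0.20).

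**Figure D4:**
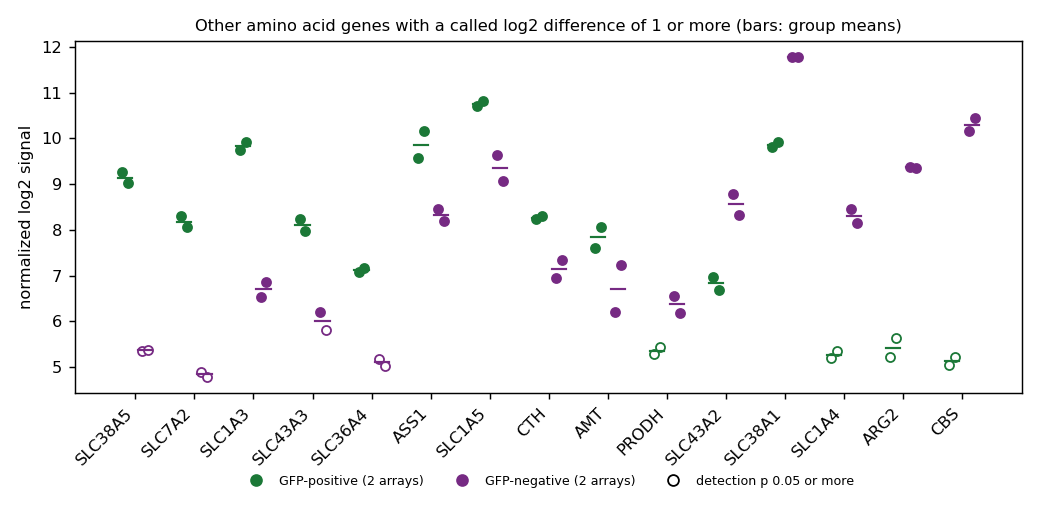
Normalized log2 signal on each array, GFP-positive left of GFP-negative, for the 15 amino acid genes outside the branched-chain enzymes with a called fitted log2 difference of 1 or more, ordered from the largest increase to the largest decrease (open points: detection p of 0.05 or more, bars: means of 2 arrays). The genes were picked by call and size of difference, so the lack of overlap between their groups is no separate evidence. SLC1A4, ARG2, CBS and PRODH are undetected on both GFP-positive arrays, and SLC38A5, SLC7A2 and SLC36A4 on both GFP-negative arrays.

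Enzymes that make or use arginine moved apart. ARG2, the mitochondrial arginase that splits arginine into ornithine and urea, had signals of 141 and 184 in GFP-positive cells, against 782 and 880 in GFP-negative cells. Neither GFP-positive array detected it, and it was at least 9.35-fold lower (adjusted p = 5.93e-06). ASS1, argininosuccinate synthase, had 852 and 1246, against 476 and 468, by its brightest probe (1.54 ± 0.24, adjusted p = 0.00193). A further ASS1 probe had 819 and 964, against 234 and 237 (3.05 ± 0.18, adjusted p = 1.21e-05), so both tested probes rose, by unequal amounts. The gene table lists 14 ASS1 pseudogenes, and whether their transcripts bind these probes was not tested. ASL, which cleaves argininosuccinate to arginine, had 517 and 513, against 432 and 377 (0.59 ± 0.22, adjusted p = 0.0679, and 0.0303 with the replicate number as a block).

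Of the 3 proline and ornithine enzymes tested, PYCR1 rose, PRODH fell and OAT did not pass. PYCR1, the last enzyme of proline synthesis, had 3551 and 4163 in GFP-positive cells, against 2740 and 2682 in GFP-negative cells (0.72 ± 0.18, adjusted p = 0.0172). Its other tested probes, both near background, had 0.49 and -0.39, and the call was lost without GFP-positive replicate 1 (0.0504), GFP-positive replicate 2 (0.133) or GFP-negative replicate 2 (0.0543), and under 75th percentile scaling (0.0559). PRODH, the first enzyme of proline breakdown, had 146 and 170, against 232 and 214. Only the GFP-negative arrays detected PRODH, and GFP-positive cells lay at least 1.17-fold lower. The adjusted p of 0.00606 is that of the fitted log2 difference of -1.01, which rests on GFP-positive signals at background. OAT, ornithine aminotransferase, had 4038 and 5540, against 5160 and 8130, and the groups overlapped (-0.28 ± 0.26, adjusted p = 0.421).

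No tested enzyme of glutamate and aspartate interconversion passed. GLUD1, glutamate dehydrogenase, had signals of 6166 and 6088 in GFP-positive cells, against 5957 and 6692 in GFP-negative cells (log2 difference 0.15 ± 0.17, adjusted p = 0.51). The bead signals of the GLUD1 groups overlapped, while the normalized log2 values did not (12.66 and 12.64, against 12.44 and 12.55). The aspartate aminotransferases GOT1 and GOT2 had differences of 0.20 ± 0.18 and -0.24 ± 0.17 (adjusted p = 0.41 and 0.301). A probe of GLUD1 may also bind its near-identical copies, of which the gene table lists 7. Outside the list, GAD1, which turns glutamate into the transmitter GABA, was at least 8.29-fold higher in GFP-positive cells (adjusted p = 2.67e-06).

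Of the other glutamate, proline, arginine and urea cycle genes, 8 were tested, with 5 higher and 1 lower (62.5% and 12.5%, beside 21.5% and 24.1% of all). Besides GAD1 they included CPS1, the carbamoyl phosphate synthetase of the urea cycle (2.23 ± 0.19, adjusted p = 9.53e-05), NAGS, which makes its activator (at least 2.66-fold, detected on 1 of the 2 GFP-negative arrays), and ASNS, asparagine synthetase (1.37 ± 0.28). ALDH4A1, which acts after PRODH, was lower (-0.85 ± 0.18, adjusted p = 0.00829).

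The transsulfuration enzymes, which turn homocysteine into cysteine, went opposite ways. CBS, cystathionine beta-synthase, had signals of 124 and 151 in GFP-positive cells, against 1288 and 1707 in GFP-negative cells. It was undetected on both GFP-positive arrays and was at least 17.8-fold lower (adjusted p = 1.5e-06). CTH, cystathionine gamma-lyase, which acts next, had 425 and 466, against 258 and 321, by its brightest probe (1.12 ± 0.20, adjusted p = 0.00353). The other CTH probes had 0.41 and 0.35 and did not pass (adjusted p = 0.131 and 0.226).

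Subunits of the glycine cleavage system also split. GLDC, the decarboxylase, had signals of 526 and 575 in GFP-positive cells, against 918 and 1085 in GFP-negative cells (-0.96 ± 0.17, adjusted p = 0.00378). AMT, the aminomethyltransferase, had 326 and 417, against 212 and 307 (1.12 ± 0.34, adjusted p = 0.0339). The GFP-negative arrays were far apart for AMT, and its call was lost without GFP-positive replicate 2 (difference 0.89, adjusted p = 0.146) or GFP-negative replicate 1 (0.61, adjusted p = 0.121), and with all probes tested (0.141). SHMT1, the cytosolic serine hydroxymethyltransferase, had 3098 and 2486, against 3472 and 4173 (-0.28 ± 0.20, adjusted p = 0.303).

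The other serine, glycine, threonine and sulfur genes gave 2 higher and 3 lower of 11 tested (18.2% and 27.3%, beside 21.5% and 24.1% of all). Among them were the serine racemase SRR at -1.81 ± 0.20 (adjusted p = 0.000396) and AHCY, which releases homocysteine, at 0.51 ± 0.17 (adjusted p = 0.0455). Of 6 tested genes of aromatic, lysine and histidine breakdown, 2 were higher and 1 lower (33.3% and 16.7%, beside 21.5% and 24.1%). AADAT, an aminotransferase of lysine and tryptophan breakdown, had a log2 difference of 4.45 ± 0.18 (adjusted p = 2.15e-06), FAH, the last enzyme of tyrosine breakdown, was at least 3.65-fold higher in GFP-positive cells (adjusted p = 3.2e-05), and GSTZ1, which acts just before FAH, was lower (-0.88 ± 0.18, adjusted p = 0.00671). Over all 105 further amino acid genes, 58 were tested, 13 of them higher and 18 lower (22.4% and 31%, beside 21.5% and 24.1% of all tested genes).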

How the data were processed

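Per the labels' protocols, total RNA was amplified as biotin-labelled cRNA for hybridisation to bead arrays. The deposited intensity values are non-normalized linear bead signals per probe, per the file headers, and each has a deposited detection p-value that ranks it among the negative controls in steps of 1 in 770. The submitters' processing notes name GenomeStudio 2009.2, with background subtraction there not given in the sources used here. A deposited table of log2 values equals the quantile-normalized log2 signals and is brighter upwards, uncentred, with its processing unstated.

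In R 4.3.3 with limma 3.58.1, background was corrected by normexp inferred from detection p-values (offset 16), arrays were quantile-normalized and log2 was taken. Of 47321 probes, 18098 had a detection p under 0.05 in both replicates of at least 1 group and entered lmFit and eBayes (residual degrees of freedom 2, prior 5.32), and p-values were adjusted over all tested probes. The fit was tested on simulated data. Probes were named from the platform annotation (30111 with 1 symbol, 8 with several, 17202 unnamed here), with 30072 symbols updated by gene identifier.

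A gene is called where at least 1 probe is, and differences are those of its brightest tested probe. "At least" folds concern a group undetected or detected on 1 array. There, values below an array's lowest detected value were raised to it, and higher values were kept. All listed genes may be named, and of each further amino acid list up to 4 genes per direction with the largest called change. The listed genes, lists and rules were chosen with earlier results of these data known. Arrays were grouped by their titles. Whether a group's arrays came from separate cultures is not stated, so the p-values cover only the spread among these arrays, whose number limits the precision. The series text describes pairs isolated on different days. A shared replicate number may stand for a shared day, which the labels do not state, and was used as a block in 1 alternative. Deviations of same-numbered arrays correlated at 0.219. Alternatives varied background correction, scaling, detection filter, offset, the block for the replicate number, the probe per gene and the arrays included.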

Additional observations from a re-analysis of the deposited data

How the results depend on the processing

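The BCAT1 decrease and 18 of the 26 other amino acid genes called by their brightest probe kept direction and call under every alternative of processing and of left-out arrays that gave a value, though other probes of SLC38A1, BCKDHB and CTH among the 18 did not pass. The other 8, SLC7A8, SLC38A9, SLC36A1, BCAT2, DBT, IVD, PYCR1 and AMT, lost the call under at least 1 alternative, and the cause was not tested. With probes detected on all arrays only, 7 listed genes were higher and 2158 of all probes were, since fewer probes are tested, and BCAT1 has no value there. With all probes tested, 11 further amino acid genes were lower. Leaving out 1 array left 4535 to 6938 called probes (2220 to 3363 higher, 2315 to 3575 lower), 8 to 11 listed genes higher and 12 to 14 lower, and 9 to 13 further amino acid genes higher and 11 to 15 lower. With cyclic loess 3731 probes were higher and 3421 lower, against 3397 and 3927 in the main setting. With the replicate number as a block, 8457 probes were called, and 13 listed genes were higher and 16 lower. The added calls were ASL and SLC38A7. For the replicate number itself 0 probes passed (limma), and the labels do not state that it stands for an isolation day. Values that changed sign, none of them called, were SLC7A6 (-0.033 by its other probe), SLC38A2 (0.017) and OAT (0.033, with -0.60 at the other end of its range over left-out arrays) without GFP-negative replicate 2, SLC6A9 (0.12 without GFP-positive replicate 1, -0.85 without replicate 2), GLUD1 (-0.019) under 75th percentile scaling and PYCR1 (-0.39 by another probe); the cause was not tested. Without background correction folds were smaller, BCAT1 at -5.99 on the log2 scale. Signals near 200 are at the limit of detection, so differences of dim genes such as PRODH and SLC7A8 are bounds only.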

Other observations

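Within the groups, few amino acid genes differed by 0.7 or more on the log2 scale between the arrays of 1 group: 3 of 97 tested between the GFP-positive arrays (3.09%, beside 2.78% of all tested genes) and 3 between the GFP-negative arrays (3.09%, beside 5.28%). The 3 of the GFP-positive pair were ASNS, asparagine synthetase, PSPH, the last enzyme of serine synthesis, and SLC6A9, the glycine carrier, and all 3 were higher on replicate 2. ASNS had log2 signals of 12.59 and 13.43 on GFP-positive replicates 1 and 2, against 11.60 and 11.68 on the GFP-negative ones. PSPH had 9.68 and 10.69, against 9.10 and 9.76, and SLC6A9 had 6.69 and 7.66, against 7.42 and 7.66. The 3 of the GFP-negative pair were AMT, AUH and SLC38A9. These genes were chosen after their values were seen and no test was run.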
